A study of Rattus norvegicus with 35 samples.

Results

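The cilium genes measured here were 40 of the 13439 genes that the array names by a single symbol. They were chosen by a rule on symbols alone, which was set with earlier results of these data known. It names every gene whose symbol starts with Ift, Bbs, Dnah, Dnai, Tekt or Odad followed by a digit, and the polycystins Pkd1 and Pkd2. Pkhd1, which the same rule names, was not analysed here because no probe set carried its symbol alone. The 40 genes comprised 17 intraflagellar transport genes, 7 genes of the BBSome and its chaperonins, 2 polycystins, 6 tektins, 6 axonemal dynein chains and 2 subunits of the outer dynein arm docking complex. They were represented by 52 probe sets, and for the 10 genes with several the brightest over all arrays was used.

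A cilium is a membrane-covered rod of microtubules. Primary cilia are single, non-motile and sensory, and in liver they project from the bile duct cells, the cholangiocytes, into the duct lumen, while hepatocytes lack them. Intraflagellar transport moves cargo along the rod, with the B complex running outward on kinesin-2 and the A complex running back on dynein-2. The BBSome is an adaptor that carries membrane proteins out of the cilium, and polycystin-1 and polycystin-2 form a receptor and channel pair in its membrane. Motile cilia and sperm tails add axonemal dyneins, the docking complex that holds their outer arms, and tektins, which stiffen the doublet microtubules.

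The livers came from 35 rats in 6 groups, and each was hybridised to 1 Affymetrix array. Control rats, which the labels describe only as controls, underwent either a sham procedure (5 rats) or hemorrhage followed by resuscitation, written H/R here (6 rats). Rats with secondary biliary cirrhosis, studied 4 weeks after the common bile duct was tied and cut and given vitamin K every week, underwent the sham procedure (5 rats) or H/R (6 rats). Further ligated rats received simvastatin, an inhibitor of cholesterol synthesis, by gavage, 5 mg/kg daily starting 3 days ahead of the study with the last dose 1 h before it, and then the sham procedure (5 rats) or H/R (8 rats). The labels do not say whether the untreated ligated rats received a vehicle, and they give neither strain nor age.

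Values below are the deposited log2 signals, and a change is a difference of group means on that scale with its standard error from a limma fit over all genes. A gene was called higher or lower at a Benjamini-Hochberg adjusted p under 0.05. The brightest of the array's control probe sets for nonspecific binding set the floor: it averaged between 4.51 and 4.59 in the control groups and between 3.26 and 4.00 in the ligated groups. Of the 40 genes, 13 stood above that floor in all 6 groups, 17 in some groups and 10 in no group. The number above it was 16 in control sham, 13 in control H/R, 28 in ligated sham, 27 in ligated H/R, 30 in simvastatin sham and 28 in simvastatin H/R livers. Where only the brighter group exceeded the floor, a fold is given as a lower bound. The other nonspecific controls averaged at most 2.40 to 2.77 by group, and 33 of the 40 genes stood above those in all 6 groups. The floor therefore sets the size of the bounds: the Ift81 means in sham rats differ 4.89-fold against a bound of 3.22-fold, and those of Dync2li1, a dynein-2 subunit gene, 14.8-fold against 5.99-fold. Array medians lay between 3.98 and 4.02 in control livers and between 4.06 and 4.29 in ligated livers, without overlap. No arrays were identical. The lowest median correlations with the others of their group, between 0.966 and 0.9735, belonged to 3 arrays: ligated sham replicate 3, simvastatin sham replicate 1 and simvastatin H/R replicate 3.

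Bile duct ligation was accompanied by higher signals of many genes of the primary cilium. In sham rats 19 of the 40 genes rose and 3 fell, against backgrounds of 25.3% of all genes called higher and 22.4% called lower. The median change was 0.48, beside -0.04 over all genes. In H/R rats, compared on arrays that none of the sham rats share, 20 rose and 2 fell against backgrounds of 24.7% and 22.3%, with a median of 0.38 beside -0.03. Of these, 17 rose in both comparisons, 2 fell in both, and 36 of the 40 had the same sign. Across these genes, which are not independent replicates, the changes in the 2 comparisons had a Pearson correlation of 0.928. Groups did not overlap for 14 genes that were higher and 2 that were lower in sham rats (backgrounds 18.8% and 13.3%), and for 11 higher and 0 lower in H/R rats (backgrounds 14.3% and 8.94%). Centring each array on its own median moved the median change of all genes from -0.04 to -0.23 in sham rats and from -0.03 to -0.19 in H/R rats. The counts then became 17 higher and 8 lower in sham rats and 18 higher and 5 lower in H/R rats. The backgrounds above do not apply to these counts, and the shares of all genes called after centring are not given here.

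The number in the sample titles has an ending whose meaning is not stated, and the ending that all control arrays carry is on no untreated ligated array. It is on 9 arrays of simvastatin-treated ligated rats, which were therefore set against the controls in a fit chosen after the data were seen. In sham rats, 3 ligated against 5 control arrays, 20 cilium genes were higher and 4 lower (backgrounds 26.9% and 24%), among them all 19 that rose and all 3 that fell in untreated rats. In H/R rats, 6 against 6 arrays, 23 were higher and 4 lower (backgrounds 28% and 27.1%), among them all 20 that rose and both that fell. Pkd2 ran from 8.49 to 9.24 on the 3 ligated arrays and from 5.22 to 5.80 in control sham livers, and Ift81 from 6.91 to 7.02 and from 3.44 to 4.23. These arrays share the ending but differ in both ligation and the drug. The control arrays are the same ones used against the untreated ligated rats, so the agreement between the 2 comparisons is not independent. With the ending as a block in a fit of all 35 arrays, where untreated ligated and control arrays are linked only through other groups, 9 genes were higher and 2 lower in sham rats, beside 833 and 296 of all genes, and 14 higher and 1 lower in H/R rats, beside 2021 and 1459. The 9 were Pkd2, Ift81, Ift80, Ift74, Ift57, Ift88, Bbs7, Bbs2 and Tekt1, all of which were also higher in H/R rats, while Ift122 (0.84, adjusted p = 0.277), Ift43 (0.90, adjusted p = 0.254) and Bbs1 (0.84, adjusted p = 0.391) were among those no longer called in sham rats. The 2 lower genes in sham rats were Odad4 and Tekt5l1.

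**Figure D1:**
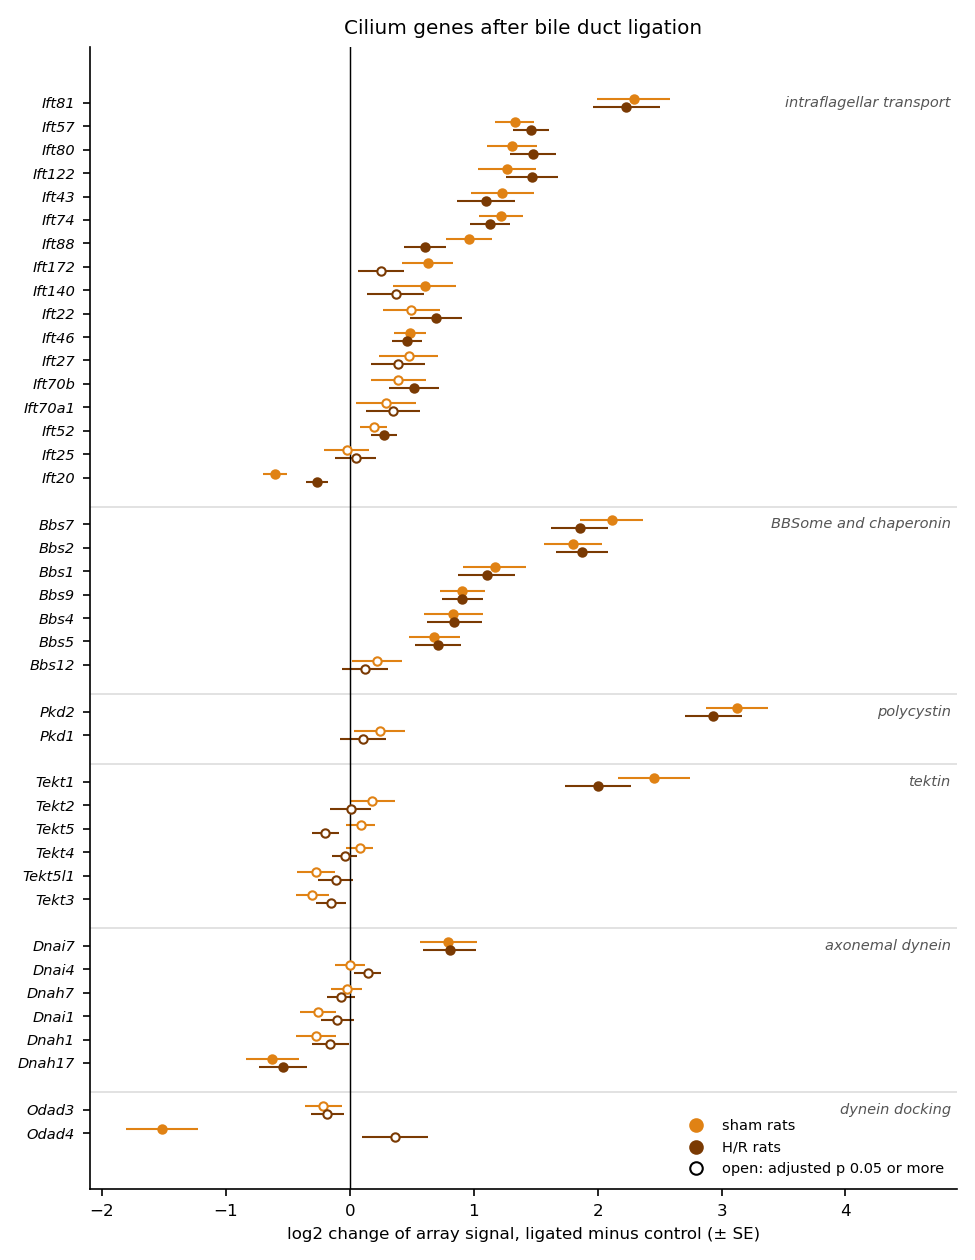
Change after bile duct ligation of each of the 40 cilium genes, as the log2 difference between ligated and control livers with its standard error, in sham rats (light) and H/R rats (dark), grouped by family; filled points have an adjusted p under 0.05. Pkd2, at 3.12 and 2.93, lies farthest to the right, while the tektins other than Tekt1 and the dyneins other than Dnai7 lie between -0.62 and 0.18 in sham rats.

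Among the intraflagellar transport genes, 10 of 17 rose and 1 fell in sham rats, and 11 rose and 1 fell in H/R rats. Ift81, which with Ift74 forms the tubulin-binding module of the B complex, read 3.78, 3.44, 4.23, 4.20 and 3.97 in the 5 control sham livers and 6.58, 6.49, 5.08, 6.37 and 6.55 in the ligated sham livers. The groups did not overlap, and ligated replicate 3 was the low one. The control values lay under the floor, so the rise was at least 3.22-fold (log2 change 2.29 ± 0.30 SE, adjusted p = 1.18e-07). In H/R rats the lowest, median and highest Ift81 values were 3.04, 3.49 and 4.54 in controls and 5.31, 5.97 and 6.18 after ligation, at least 2.28-fold apart. Its partner Ift74 read 5.33, 5.21, 5.38, 4.79 and 4.84 in control sham and 6.46, 6.21, 6.08, 6.39 and 6.52 in ligated sham livers. All ligated values were above all control values, and Ift74 rose 2.33-fold (1.22 ± 0.18 SE) in sham and 2.19-fold in H/R rats.

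Ift57, a peripheral subunit, read 6.17, 5.87, 6.24, 6.15 and 6.21 in control sham livers and 7.68, 7.66, 7.09, 7.37 and 7.49 after ligation. It rose 2.51-fold in sham rats (1.33 ± 0.16 SE, adjusted p = 2.34e-08) and 2.75-fold in H/R rats, with no overlap in either. Ift80, another peripheral subunit, whose human mutations cause a skeletal ciliopathy, read 4.68, 4.76, 4.39, 4.01 and 4.64 in control sham and 5.97, 5.87, 5.50, 5.50 and 6.17 in ligated sham livers. Its control mean lay just under the floor, and the rise was at least 2.26-fold in sham and at least 2.02-fold in H/R rats. Ift88, a core subunit needed to build the cilium, rose 1.95-fold in sham and 1.52-fold in H/R rats, and Ift46 rose 1.40-fold and 1.38-fold. Ift172, a peripheral subunit, was called in sham rats alone (0.63 ± 0.20 SE, against 0.25 ± 0.19 SE in H/R rats), and the difference of the ligation effect between H/R and sham rats passed the threshold for no cilium gene.

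In the A complex Ift122, a core subunit, read 4.67, 5.75, 5.49, 5.55 and 4.91 in control sham livers and 6.89, 6.47, 5.95, 6.62 and 6.80 in ligated sham livers. It rose 2.41-fold (1.27 ± 0.23 SE) in sham rats and 2.77-fold in H/R rats, without overlap. Ift43, a small peripheral subunit, read 5.74, 6.09, 5.85, 5.78 and 5.97 in control sham and 7.31, 7.40, 6.56, 7.24 and 7.08 in ligated sham livers, a rise of 2.35-fold (1.23 ± 0.25 SE), and rose 2.14-fold in H/R rats. These groups were separate in sham rats and overlapped in H/R rats. Ift140 was called in sham rats alone (0.61 ± 0.25 SE, adjusted p = 0.0478).

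Among the remaining transport genes 1 fell and 3 rose in H/R rats alone. Ift20, the B complex subunit that also resides at the Golgi, fell in both comparisons. It read 8.54, 8.64, 8.52, 8.75 and 8.68 in control sham livers and 8.00, 8.12, 8.13, 7.68 and 8.17 after ligation, with no overlap. Its signal was 1.52-fold lower in sham rats (-0.60 ± 0.10 SE, adjusted p = 4.55e-06) and 1.20-fold lower in H/R rats (-0.27 ± 0.09 SE, adjusted p = 0.0139). With the title ending as a block Ift20 was called in neither comparison. Ift25, whose protein pairs with Ift27, changed by -0.03 ± 0.18 SE and 0.05 ± 0.17 SE, and neither change was called, nor were those of Ift27 (0.48 and 0.39). Ift52, Ift22 and Ift70b were called in H/R rats alone, with changes of 0.28, 0.70 and 0.52, beside 0.19, 0.50 and 0.39 in sham rats. Ift70a1 and Ift70b are close copies of one another, so their probe sets may share signal.

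Of the BBSome group, 6 of 7 genes rose in each comparison, the exception being the chaperonin-like Bbs12 (0.22 and 0.13), which lay under the floor in all 4 of these groups. Bbs7, a subunit of the BBSome core, read 4.06, 3.52, 3.94, 3.94 and 4.10 in control sham livers and 6.10, 6.07, 5.65, 6.53 and 5.77 in ligated sham livers. These groups were separate, and the rise was at least 2.86-fold in sham rats (2.11 ± 0.26 SE, adjusted p = 2.87e-08) and at least 2.12-fold in H/R rats. Bbs2, the core subunit that pairs with Bbs7, read 4.17, 4.24, 5.02, 4.04 and 4.58 in control sham and 6.41, 6.13, 5.50, 6.49 and 6.51 in ligated sham livers, at least 3.02-fold apart, and at least 2.76-fold apart in H/R rats. Bbs1, the subunit that binds the small GTPase Arl6, read 3.00, 3.39, 3.13, 3.87 and 4.72 in control sham and 5.41, 4.69, 4.60, 4.65 and 4.58 in ligated sham livers. One control value, 4.72, lay among the ligated ones, and the bound was 1.22-fold (1.17 ± 0.25 SE, adjusted p = 0.000279). In H/R rats its change was 1.11 ± 0.23 SE without overlap, with no bound above 1 to give. Bbs9, Bbs4 and Bbs5 rose 1.87-fold, 1.78-fold and 1.61-fold in sham rats, and their changes in H/R rats were 0.91, 0.84 and 0.71 on the log2 scale.

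Of the polycystins 1 was called. Pkd2, the channel subunit, read 5.72, 5.35, 5.79, 5.31 and 5.22 in control sham livers and 8.71, 8.82, 7.72, 9.14 and 8.62 in ligated sham livers. The lowest ligated liver exceeded the highest control by more than 1 log2 unit, and Pkd2 rose 8.72-fold (3.12 ± 0.25 SE, adjusted p = 5.52e-12). In H/R rats its lowest, median and highest values were 5.37, 5.51 and 6.18 in controls and 7.97, 8.59 and 9.13 after ligation, a rise of 7.63-fold. A dimmer Pkd2 probe set, above the floor in 2 of the 6 groups, changed by -0.03 ± 0.15 SE in sham and -0.07 in H/R rats, so the rise was seen by 1 of the 2 probe sets. Pkd1, the receptor subunit, read 4.11, 4.00, 3.44, 3.32 and 3.55 in control sham and 3.77, 3.68, 3.73, 4.66 and 3.78 in ligated sham livers. These groups overlapped, and its change of 0.24 ± 0.21 SE in sham and 0.11 ± 0.19 SE in H/R rats was not called. Pkd1 lay under the floor in both control groups and in ligated H/R livers.

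Second probe sets of Bbs1, Bbs4, Bbs7, Ift122 and Ift46 were likewise dimmer and were not called in either comparison. A second Ift81 probe set rose in both (0.69 and 0.49, adjusted p = 0.00234 and 0.0166 over all probe sets), and one more was called in neither (0.56 and 0.70, adjusted p = 0.18 and 0.0663). The 2 Ift22 probe sets, nearly equal in brightness (means 3.88 and 3.77), disagreed: the second was called in sham rats (0.49, adjusted p = 0.0343) and not in H/R rats (0.02, adjusted p = 0.931), the reverse of the first. Averaging the probe sets of each gene gave 20 higher and 3 lower in sham rats and 17 higher and 2 lower in H/R rats. The shares of all genes called after averaging are not given here.

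**Figure D2:**
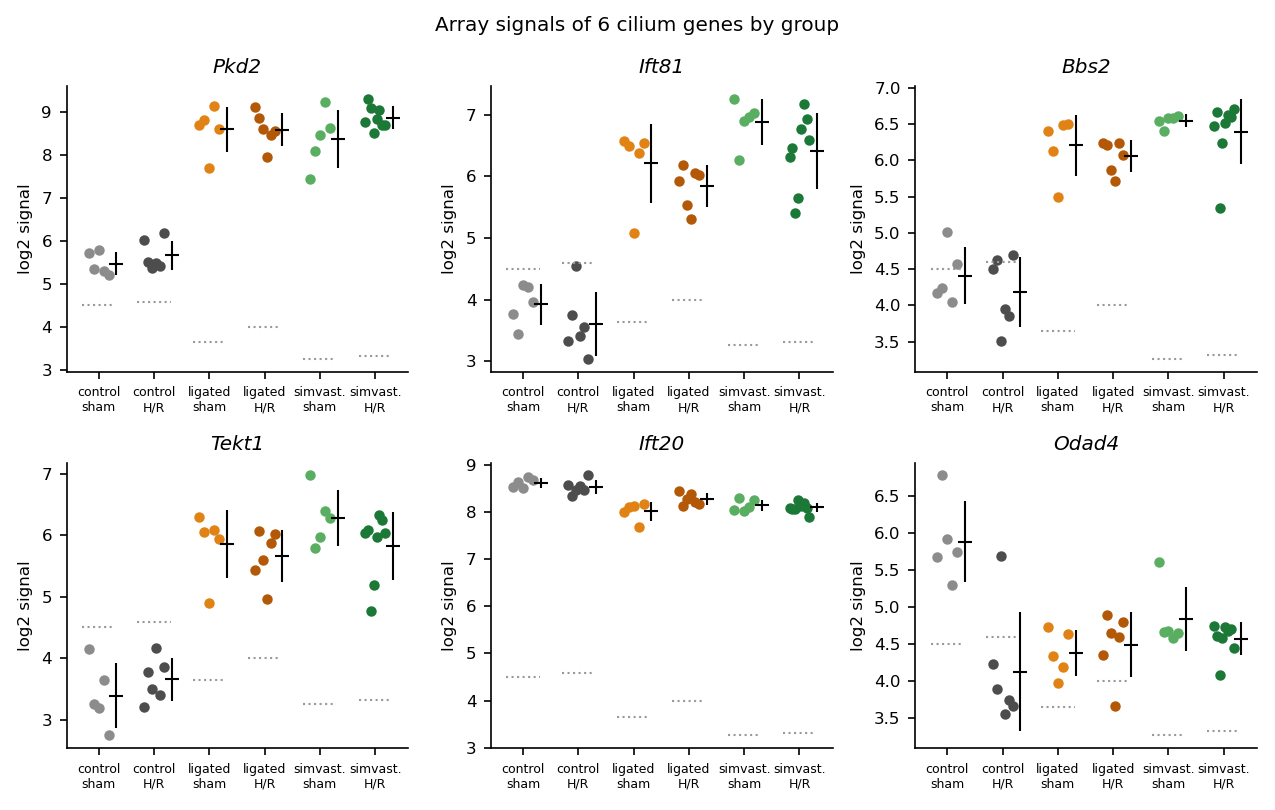
Log2 signal of 6 cilium genes on each of the 35 arrays by group, with mean ± SD in black and the group mean of the brightest nonspecific control as a dotted line. Pkd2, Ift81, Bbs2 and Tekt1 are higher in all 4 ligated groups than in both control groups, Ift20 is lower, and Odad4 is high in control sham livers and in 1 liver each of control H/R and simvastatin sham.

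Genes that belong to motile cilia and sperm tails mostly read under the floor: 10 of the 14 genes, among them Odad3, every axonemal dynein chain but Dnai7 and every tektin but Tekt1 and Tekt2, did so in all 6 groups. That count hangs on the brightest nonspecific control. Against the other nonspecific controls Tekt4, Tekt5 and Tekt5l1 stood above in no group and Dnah7, Dnai4, Tekt2 and Tekt3 in some. The rest, Dnah17 and Odad3 included, stood above those in all 6 groups. Tekt1 rose. It read 4.15, 3.25, 3.19, 3.64 and 2.75 in control sham and 6.30, 6.05, 4.89, 6.08 and 5.94 in ligated sham livers, without overlap and at least 2.51-fold apart (2.46 ± 0.29 SE, adjusted p = 1.88e-08). In H/R rats the bound was 2.10-fold, with lowest, median and highest values of 3.21, 3.65 and 4.17 in controls and 4.97, 5.74 and 6.07 after ligation. The other 5 tektins changed by -0.30 to 0.18 in sham rats, and none was called. Dnai7, a dynein intermediate chain, rose from 3.64 ± 0.23 (SD, n = 5) to 4.43 ± 0.31 in sham rats (0.80 ± 0.23 SE) and by 0.81 ± 0.21 SE in H/R rats. There was no bound above 1 to give, because its ligated means did not exceed the floor of the control groups, 4.51 in sham and 4.59 in H/R rats. Dnah17, a heavy chain known from human sperm tails, was called lower in both comparisons (-0.62 and -0.54), but under the floor in every group, and in neither with the title ending as a block.

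Odad4, a docking complex subunit, was lower after ligation in sham rats. It read 5.68, 6.78, 5.93, 5.30 and 5.75 in control sham livers and 4.73, 4.34, 3.97, 4.18 and 4.63 in ligated sham livers, and fell 2.86-fold without overlap (-1.51 ± 0.29 SE, adjusted p = 6.96e-05). In control H/R livers its lowest, median and highest values were 3.55, 3.81 and 5.69, and in ligated H/R livers 3.66, 4.62 and 4.89. These overlapped, and the change of 0.37 ± 0.27 SE was not called; without control H/R replicate 3, the liver at 5.69, it became 0.68 with an adjusted p of 0.0117.

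Promoter sequences of 33 of the 40 genes were found in RefSeq (build GRCr8), each from 250 bases before to 50 after the annotated start. The RFX transcription factors, which switch on many ciliary genes, bind a mirrored element called the X-box, and the letters GTTGCC, read on both strands, are one arm of it. They occurred for 10 of the 33 genes, or 30.3%, and for 13.1% of all 27457 genes in the same table. By family this was 3 of 7 BBSome, 4 of 13 transport, 3 of 5 tektin, 0 of 2 polycystin, 0 of 5 dynein and 0 of 1 docking genes. In these promoters 12 of 13 matches lay within 50 bases of the start, against 39.1% of the matches in all promoters. Matches were held by 6 of the 16 genes called higher in ligated sham livers, 1 of the 2 called lower and 3 of the 15 not called. Such a match is a string of letters and does not show that a factor binds there.

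The 6 promoters printed here show both outcomes: genes that rose with matches (Ift81, Bbs2, Bbs5, Tekt1), the gene that fell with a match (Ift20) and the gene with the largest rise and none (Pkd2). Capitals mark GTTGCC or its reverse complement, and each sequence reads 5′ to 3′ on the strand of its gene. They lie at chr12:39618372-39618671 (plus strand), chr19:10915316-10915615 (plus), chr3:74818390-74818689 (plus), chr10:57479072-57479371 (minus), chr10:63930431-63930730 (plus) and chr14:5585091-5585390 (minus).
Ift81: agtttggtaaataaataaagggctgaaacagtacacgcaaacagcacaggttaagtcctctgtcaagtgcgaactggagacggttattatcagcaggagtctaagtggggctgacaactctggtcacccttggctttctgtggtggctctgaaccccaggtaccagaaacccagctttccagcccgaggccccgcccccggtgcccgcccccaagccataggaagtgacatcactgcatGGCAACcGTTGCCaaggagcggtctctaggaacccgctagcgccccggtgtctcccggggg
Bbs2: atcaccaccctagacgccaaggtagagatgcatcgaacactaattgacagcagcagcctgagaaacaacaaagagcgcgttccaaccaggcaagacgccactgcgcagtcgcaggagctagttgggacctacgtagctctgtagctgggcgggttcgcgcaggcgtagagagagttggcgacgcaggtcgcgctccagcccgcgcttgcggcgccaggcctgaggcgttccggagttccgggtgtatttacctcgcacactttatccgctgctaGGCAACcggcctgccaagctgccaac
Bbs5: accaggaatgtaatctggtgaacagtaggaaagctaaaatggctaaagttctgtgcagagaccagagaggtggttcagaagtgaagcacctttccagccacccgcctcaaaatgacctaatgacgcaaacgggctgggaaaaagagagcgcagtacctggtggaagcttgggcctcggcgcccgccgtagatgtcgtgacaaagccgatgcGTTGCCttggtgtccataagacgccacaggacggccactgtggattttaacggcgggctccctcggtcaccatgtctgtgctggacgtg
Tekt1: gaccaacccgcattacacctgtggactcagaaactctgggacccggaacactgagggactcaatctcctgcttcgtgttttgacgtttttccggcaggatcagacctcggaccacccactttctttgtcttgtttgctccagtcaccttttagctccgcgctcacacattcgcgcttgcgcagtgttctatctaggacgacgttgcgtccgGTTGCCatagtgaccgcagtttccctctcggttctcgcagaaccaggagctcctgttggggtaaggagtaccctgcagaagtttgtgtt
Ift20: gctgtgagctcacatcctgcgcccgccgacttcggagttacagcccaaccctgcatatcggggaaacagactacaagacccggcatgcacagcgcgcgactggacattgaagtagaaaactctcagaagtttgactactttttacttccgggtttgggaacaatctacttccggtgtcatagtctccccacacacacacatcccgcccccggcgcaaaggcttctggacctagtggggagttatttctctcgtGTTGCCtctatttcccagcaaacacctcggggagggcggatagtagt
Pkd2: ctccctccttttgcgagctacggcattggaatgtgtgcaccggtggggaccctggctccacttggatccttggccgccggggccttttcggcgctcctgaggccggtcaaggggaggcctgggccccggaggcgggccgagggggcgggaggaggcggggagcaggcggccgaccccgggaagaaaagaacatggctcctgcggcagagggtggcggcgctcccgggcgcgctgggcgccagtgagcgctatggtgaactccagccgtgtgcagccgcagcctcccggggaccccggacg
In Ift81 the 2 matches lie on opposite strands with 1 base between them, and the second spans the start. Their order, GGCAAC before GTTGCC, is the reverse of that in the mirrored 14-letter element, which did not occur in the Ift81 promoter. Ift81, with this pair, and Pkd2, with no match, both rose after ligation, while Ift20 fell with a match just past its start.

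Cilium genes under other names were taken from lists drawn up with earlier results of these data known. Of 12 further transport and motor genes, 11 rose in sham rats (median change 1.18) and 10 rose and 1 fell in H/R rats. Over all genes, 25.3% were called higher in sham and 24.7% in H/R rats. Dync2li1, the light intermediate chain of dynein-2, rose at least 5.99-fold in sham rats (3.89 ± 0.33 SE) and Dync2h1, its heavy chain, at least 2.42-fold, while the kinesin-2 subunits Kifap3 and Kif3b rose 2.34-fold and 2.05-fold. Of 6 BBSome partners 5 rose in each comparison, led by Arl6 (2.25-fold), Bbip1 (2.19-fold), Trim32 (2.79-fold) and Ttc8 (2.83-fold). Mkks, a BBSome chaperonin, fell 1.28-fold.

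At the base of the cilium, 9 of 15 transition zone and basal body genes rose in sham and 8 in H/R rats, with none falling. The shares of all genes were 25.3% and 24.7% called higher and 22.4% and 22.3% called lower. B9d1 rose 3.96-fold, Cc2d2a at least 2.68-fold, Tmem67, also known as meckelin, 2.99-fold and Tmem216 1.69-fold. Of 13 genes of the ciliary membrane, its signalling and cystic disease, 6 rose and 2 fell in both comparisons (median 0.14 in sham rats). Dcdc2, a doublecortin-domain protein mutated in human neonatal sclerosing cholangitis, rose at least 24-fold. Dzip1l rose at least 3.72-fold, Cys1 at least 2.71-fold and the Hedgehog transducer Smo at least 1.27-fold. In H/R rats Smo was called with a change of 0.96 ± 0.17 SE and no bound above 1 to give. There Gli1 and Gli2, also of Hedgehog signalling, lay under the floor and were not called (-0.05 and -0.36). Sec63 (-0.59) and Ganab (-0.51) were called lower in H/R rats.

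Motile cilium genes outside the rule were mostly not called, with 4 of 16 higher and 1 lower in sham rats (median 0.02), a share higher close to the 25.3% of all genes. Foxj1, the regulator of motile ciliogenesis, rose at least 1.91-fold, the radial spoke gene Rsph9 3.28-fold and the light chain gene Dnal1 at least 1.30-fold. Rsph1, another radial spoke gene, was called with a change of 0.89 ± 0.29 SE. It had no bound above 1 to give, because its ligated sham mean, 3.93, lay under the control sham floor of 4.51. In H/R rats both of its group means lay under the floor. None of 7 testis markers stood above the floor in any group, and 2 were called lower in sham rats, beside 22.4% of all genes.

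**Figure D3:**
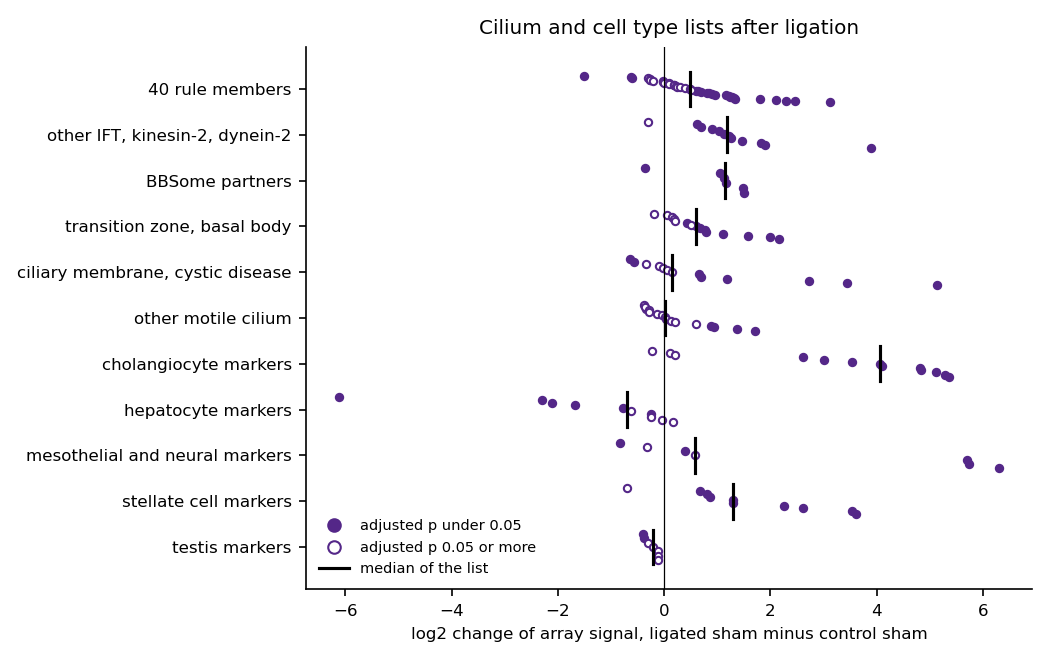
Log2 change between ligated sham and control sham livers of the 40 cilium genes, of 5 further cilium lists and of 5 lists of cell type markers; filled points have an adjusted p under 0.05 and the bar is the median of the list. Medians lie at 1.18 for the other transport and motor genes and 1.15 for the BBSome partners, and at 4.07 for the cholangiocyte markers.

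Markers of bile duct cells moved with these genes: 10 of 13 cholangiocyte markers rose and none fell in each comparison, and the mean of their log2 signals ran from 4.75 to 5.82 over control livers and from 7.66 to 8.81 over ligated livers. Epcam rose 17-fold and Krt19 28.1-fold in sham rats, both above the floor also in controls, where Krt7, Sox9, Sctr and Muc1 were not. Sox9 stayed under the floor in the ligated groups too, and all 10 hepatocyte markers were above it in all 6 groups. Of 10 hepatocyte markers 6 fell in sham rats, of 10 stellate cell and myofibroblast markers 9 rose, and of 7 mesothelial and neural markers 4 rose and 1 fell. Over all genes, 25.3% were called higher and 22.4% lower in sham rats, and 24.7% and 22.3% in H/R rats. Hepatocyte means ran from 11.83 to 12.08 in control and from 9.60 to 11.11 in ligated livers, stellate means from 5.92 to 6.25 and 7.24 to 8.23, mesothelial and neural means from 3.04 to 4.11 and 4.37 to 6.19. In whole liver, a change in the number of cells of a type and a change in RNA per cell cannot be told apart. The part of each cell type in the cilium gene changes was not tested.

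Within the 24 ligated livers the cilium genes also varied with the cholangiocyte markers. In a limma fit with a mean for each of the 4 ligated groups, chosen after the data were seen, 17 of the 40 genes had a positive slope on the marker mean past the threshold and 0 a negative one, against 14.3% and 10.8% of all genes. Ift81 rose by 1.28 ± 0.17 SE per log2 unit of the marker mean (adjusted p = 1.03e-05), Ift43 by 1.22 ± 0.15 SE, Tekt1 by 1.21 ± 0.17 SE and Bbs7 by 1.12 ± 0.18 SE. Pkd2 had a slope of 0.75 ± 0.23 SE, and Ift20 a slope of -0.11 ± 0.10 SE that was not called. Of the 19 genes higher after ligation in sham rats, 15 were among the 17.

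That relation rested largely on 5 livers. Their marker means lay between 7.66 and 7.94, and those of the other 19 between 8.16 and 8.81. Without the 5, 2 genes kept a slope past the threshold, Ift43 (1.38) and Bbs4 (1.13), where 0.647% of all genes had a positive and 1.86% a negative one, while the slope of Ift81 became 0.55, that of Bbs2 0.06 and that of Ift74 -0.05. Leaving out the 2 livers farthest from the median left 12 positive and 1 negative (10.8% and 6.7% of all genes), and the title ending entered as a block left 10 positive (8.13% of all genes). Centring each array on its median left 11 positive and 2 negative, against 8.88% and 14.4% of all genes. Without the 3 arrays of low correlation, 2 of which are among the 5, 11 were past the threshold (9.38% of all genes positive), and leaving out single arrays gave between 12 and 19. Hepatocyte marker means of the 5 livers were 11.11 in ligated sham replicate 3 and 11.07 and 10.88 in ligated H/R replicates 3 and 4. They were 10.66 and 10.18 in simvastatin H/R replicates 3 and 4. Whether the relation is particular to cholangiocyte markers was not tested. Genes and markers were read on the same arrays, and the part of array quality was not tested.

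**Figure D4:**
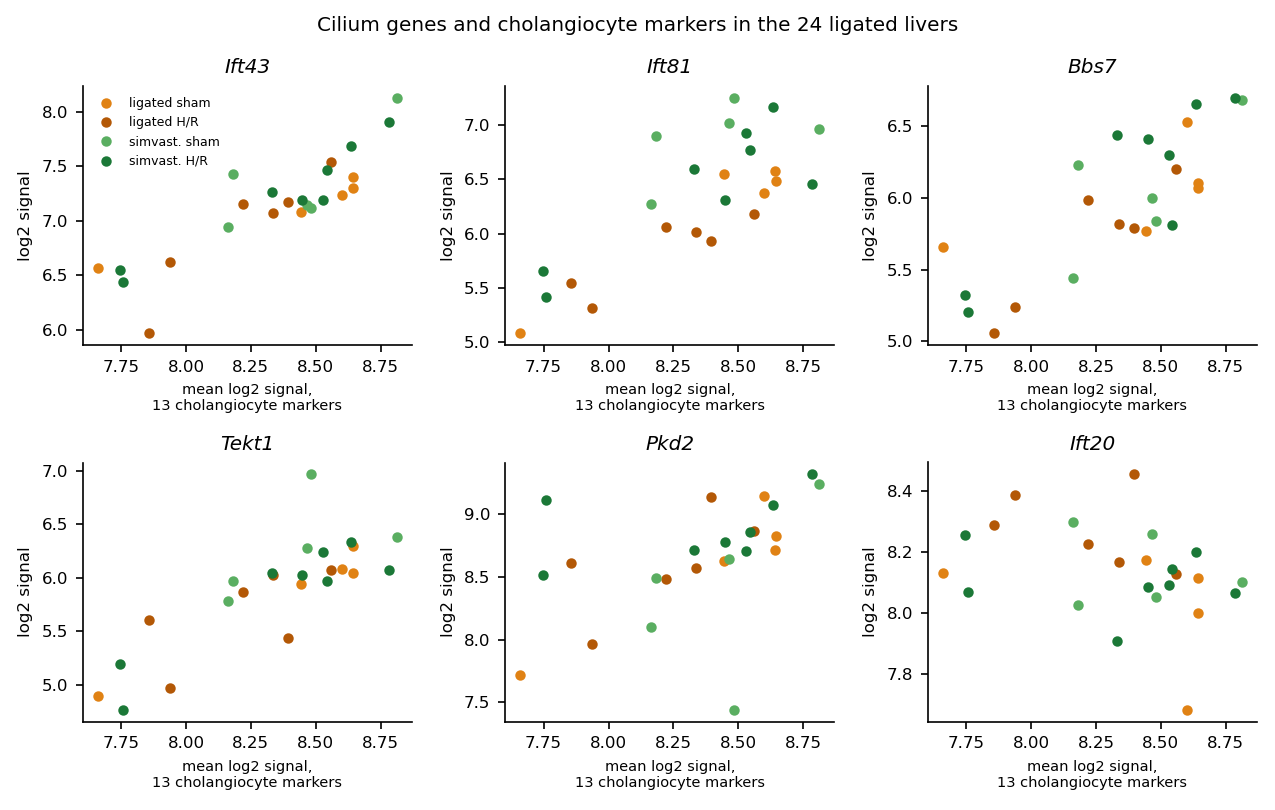
Log2 signal of 6 cilium genes against the mean log2 signal of 13 cholangiocyte markers in the 24 ligated livers, coloured by group. Ift43 rises across the whole range, Ift81 is lowest in the 5 livers under 8, and Ift20 shows no rise.

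Hemorrhage with resuscitation was associated with a called change of 1 cilium gene. In control rats Odad4 was lower after H/R (-1.76 ± 0.28 SE, adjusted p = 0.000538), and the bound was 2.07-fold because control H/R livers lay under the floor. The call was lost when only the 2 control groups entered the fit (adjusted p = 0.0955), and the groups overlapped through control H/R replicate 3. No other cilium gene was called, beside 0.365% of all genes higher and 0.491% lower; 5 had an unadjusted p under 0.05 (12.2% of all genes), Odad4 included, among them Bbs9 (-0.57 ± 0.17 SE, adjusted p = 0.113). The median over the 40 genes was -0.08. In ligated rats 0 of 40 were called by limma (background 0.134%) and 2 had an unadjusted p under 0.05 (10.4% of all genes): Bbs9 at -0.57 ± 0.17 SE (adjusted p = 0.204) and Ift20 at 0.25 ± 0.09 SE. Bbs9 passed the threshold without ligated sham replicate 3. In simvastatin-treated rats 0 were called (background 0%) and 3 had an unadjusted p under 0.05 (5.39%), with Pkd2 at 0.50 ± 0.23 SE (adjusted p = 0.888).

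The H/R effect on Odad4 differed by 1.88 ± 0.40 SE between ligated and control rats, which missed the threshold (adjusted p = 0.112). Without control H/R replicate 3 the difference was 2.19 with an adjusted p of 0.000832. For both differences of H/R effects limma called 0 of the 40 genes, with a background of 0.00744% in each, and 2 had an unadjusted p under 0.05 in each, beside 5.46% and 4.87% of all genes.

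No cilium gene passed the threshold with simvastatin. In ligated sham rats 0 of 40 were called (background 0.781%), 4 had an unadjusted p under 0.05 (10.8% of all genes), all of them higher, and the median was 0.08. Ift74 read 6.69, 6.89, 7.13, 7.04 and 7.25 with simvastatin and 6.46, 6.21, 6.08, 6.39 and 6.52 without it. These did not overlap, and the difference was 0.67 ± 0.18 SE with an adjusted p of 0.0658 and a 95% interval of 0.31 to 1.03. It passed without simvastatin sham replicate 1. Dnai7 was separate as well (0.74 ± 0.23 SE, adjusted p = 0.156), beside 1.12% of all genes with higher, non-overlapping groups. Ift81 read 7.25, 6.27, 6.91, 6.96 and 7.02 with the drug, 0.67 ± 0.30 SE above untreated livers. Outside the 40, Cep290 of the transition zone rose 1.62-fold (adjusted p = 0.0315).

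In ligated H/R rats 0 of 40 were called for simvastatin (background 1.35%), 4 had an unadjusted p under 0.05 (14.4% of all genes) and the median was 0.18 beside 0.00 over all genes. Bbs9 was 0.47 ± 0.16 SE higher (adjusted p = 0.124), Bbs4 0.48 ± 0.20 SE, Ift81 0.57 ± 0.25 SE, and Ift20 was -0.17 ± 0.08 SE. With array weights, and without the 3 arrays of low correlation, Bbs9 and Ift81 passed the threshold. Pkd2 ran from 7.44 to 9.24 in simvastatin sham and from 8.52 to 9.31 in simvastatin H/R livers, overlapping the untreated ligated livers in both.

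**Figure D5:**
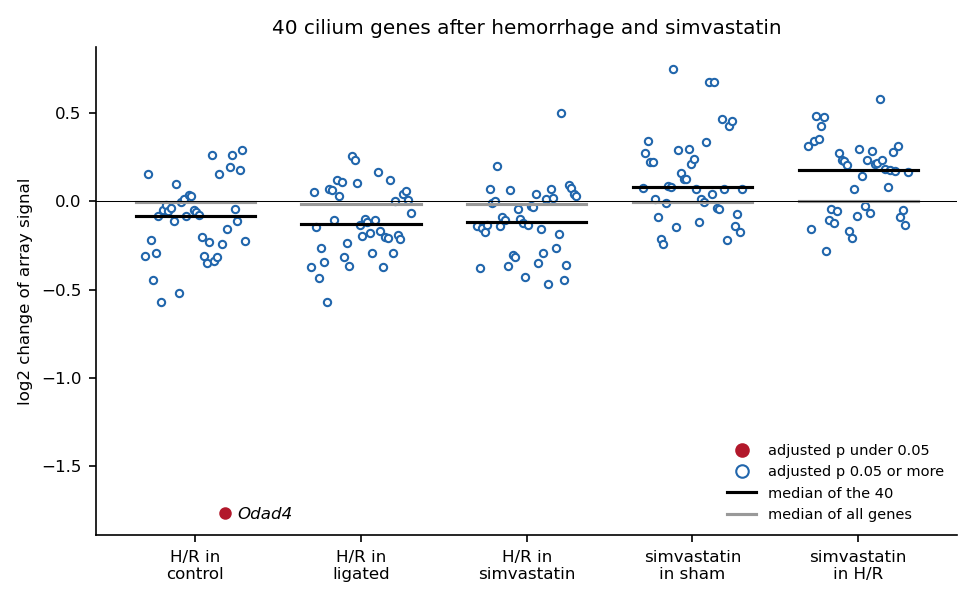
Log2 change of each of the 40 cilium genes with H/R in control, ligated and simvastatin-treated ligated rats and with simvastatin in sham and H/R rats; the black bar is their median and the grey bar that of all genes. Odad4 in control rats, at -1.76, is the single filled point, and medians run from -0.13 to 0.18.

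For the comparisons within ligated rats in which the ending of the title number could enter as a block, 0 of the 40 genes were called.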

How the data were processed

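Liver RNA of 35 rats was measured on single-colour Affymetrix rat arrays, 1 array per rat. The deposited table holds 31139 probe sets as log2 signals, per the values in the file (1.51 to 13.79), and the authors' background correction and normalization are not stated in the labels or the file. RNA extraction is not described there. Each p-value judges a difference or slope against only the spread between these samples.

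Of the probe sets, 19069 carry a single gene symbol, 572 several and 11498 none in the platform annotation. The brightest single-symbol probe set stood for each of 13439 genes. All 9 comparisons came from one limma fit (limma 3.58.1, R 4.3.3) with a mean per group, eBayes and Benjamini-Hochberg adjustment over all genes. The fit was tested on simulated data. A gene counted as above nonspecific binding where its group mean exceeded that of the brightest nonspecific control. A bound sets the bright group's mean against the mean, per array, of the higher of that control and the gene's own value.

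The cilium genes and all lists were chosen with earlier results of these data known. Full values are given for genes past the threshold with a change of at least 1 and for Pkd1 and Pkd2, and from each list for up to 4 genes of smallest p. Alternatives covered the arrays and groups fitted, weights, moderation, filter, scaling, probe sets and title ending. The 3 arrays of low correlation and the slope on the markers were chosen after the data were seen. The number of arrays limits the precision.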

Additional observations from a re-analysis of the deposited data

Results flagged for a closer look

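Single arrays stood apart from their group in 12 of 78 sets of values tested for a stray array among the 13 genes with full values. Chance alone gives about 1 in 20 per set. The genes were read on the same arrays, so the sets are not independent and an excess over chance cannot be judged. Ligated sham replicate 3 was low for Ift81 (5.08) and Tekt1 (4.89), and it had the lowest cholangiocyte marker mean of the 24 ligated livers, 7.66. Simvastatin H/R replicate 3 was low for Bbs2 (5.34), Ift122 (5.64) and Odad4 (4.08), with a marker mean of 7.76. Simvastatin sham replicate 1 was low for Ift80 (4.93) and high for Odad4 (5.60), with a marker mean of 8.48. These are the 3 arrays of low correlation with their groups.

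Control H/R replicate 3 was high for Odad4 (5.69), near the control sham values. Control sham replicate 2 was low for Bbs7 (3.52) and Ift57 (5.87), ligated sham replicate 1 was high for Bbs1 (5.41), and ligated sham replicate 4 was high for Pkd1 (4.66).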

How the results depend on the processing

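The total of called genes after ligation moved by over 1.5 times under 1 alternative, the title ending as a block in sham rats (22 to 11); in H/R rats that block gave 15. Leaving out single arrays gave 21 to 23 called genes in sham rats and 19 to 23 in H/R rats. The few lower calls varied more, from 2 to 5 in sham rats (5 without control sham replicate 3) and from 1 to 3 in H/R rats (1 without control H/R replicate 2 or ligated H/R replicate 6), and rose to 8 and 5 with centred arrays. The count for H/R in control rats was 1 under every such omission and 0 when only its 2 groups were fitted. For H/R in ligated rats omissions gave 0 to 1 and the 3 arrays of low correlation left out gave 1 (Bbs9). For simvastatin in sham rats they gave 0 to 1, and array weights gave 1 (Ift74). For simvastatin in H/R rats every single omission gave 0, while array weights and the 3 arrays left out gave 2 each. The difference of H/R effects between ligated and control rats gave 0 to 1. The remaining comparisons stayed at 0. Slopes on the cholangiocyte markers went from 17 genes to 10 with the title ending as a block, 11 without the 3 arrays, 13 with centred arrays, 2 without the 5 livers under 8 and 12 to 19 with single arrays left out. Pkd1 in H/R rats changed sign with centred arrays, from 0.105 to -0.049, uncalled in both. The cause was not tested. No paired analysis was possible because replicate numbers only follow the order of the samples. The number of arrays and the nonspecific signal, higher in the control groups, limit what can be said of dim genes.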
